A study of Homo sapiens with 6 samples.

Results

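The genes of cholesterol synthesis, regulation, uptake and efflux were examined in A549, a human cell line of lung adenocarcinoma origin. Its cells had received an siRNA aimed at SNHG17, a long noncoding RNA that hosts small nucleolar RNAs (si-SNHG17), or the control siRNA (si-NC), and each group had 3 libraries. The members were a given list of 29 gene symbols and were read by name from a table of 54261 genes. All 29 were present, as 18 synthesis enzymes, 5 regulators and 6 genes of uptake, transport, storage and efflux. Both groups were 1 cell line in serum-containing medium, and neither the siRNA sequences, their dose nor the time of harvest are given in the labels.

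Cholesterol is built from acetyl-CoA through mevalonate, isoprenoid diphosphates and squalene. Transcription of nearly the whole route is driven by the membrane-bound sterol regulatory element-binding proteins. When membrane sterol is low, the escort protein SCAP carries them from the endoplasmic reticulum to the Golgi for cleavage, and when it is high the INSIG proteins hold SCAP back. Liver X receptors sense oxidised sterols and act the opposite way, inducing efflux pumps such as ABCA1.

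Across the 29 genes, transcripts of most synthesis enzymes were lower after SNHG17 knockdown, while the efflux pump ABCA1 and the lysosomal cholesterol exporter NPC1 were higher. By edgeR's quasi-likelihood test at an adjusted p of 0.05, 14 members fell, 3 rose and 10 did not pass, of 27 with enough reads to be tested. Over all 15614 genes tested, 39.1% were called, 19.6% as lower and 19.6% as higher, against 51.9% and 11.1% of the members tested. The median log2 fold change was -0.37 over the members tested and 0.01 over all genes tested. The list was chosen with earlier results of these data known, so these contrasts with all genes are descriptions and not independent tests. ABCG1 and LPIN1 had too few reads to be tested. Groups of libraries did not overlap for 18 of the 27, 15 lower and 3 higher, where 24.3% and 25.1% of all genes tested did so.

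SNHG17 itself had 7.82, 8.39 and 11.3 CPM (counts per 1000000 counts of the TMM-scaled library) in si-SNHG17 and 38.7, 36.2 and 51.4 CPM in si-NC, which left 21.8% of the control level. Libraries held 8643076 to 12477214 counts, and si-NC replicate 3 stood apart from the other si-NC libraries (chi-square per degree of freedom 8.40 to 8.85, against 2.25 between replicates 1 and 2). Mitochondrially encoded genes took 4.16% to 4.53% of all counts under si-SNHG17 and 7.25% to 8.07% under si-NC. The epithelial keratin KRT8 averaged 2530 CPM in si-SNHG17 and 4257 CPM in si-NC, and the epithelial adhesion gene EPCAM only 0.950 CPM in si-SNHG17 and 1.53 CPM in si-NC. Summed over KRT8, KRT18, KRT19, CDH1 and EPCAM, the level was 4988 to 5005 CPM in si-SNHG17 and 8417 to 9420 CPM in si-NC. That sum is nearly all KRT8 and KRT18, which with CDH1 fell, whereas KRT19 rose (116 CPM in si-SNHG17 and 86.0 CPM in si-NC, log2 fold change 0.43, adjusted p = 0.0023 by edgeR). The immune markers PTPRC, CD3E and MS4A1 were at 0 in all 6 libraries. Summed over 5 immune markers, the level was 0 to 0.342 CPM in si-SNHG17 and 0 to 0.197 CPM in si-NC, all of it LYZ. Another 5 markers, stromal and endothelial, summed to 1.25 to 1.37 CPM in si-SNHG17 and 0.843 to 1.48 CPM in si-NC. The part of these shifts in the results on cholesterol genes was not tested. In bulk RNA, fewer cells expressing a gene and less RNA per cell cannot be told apart.

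**Figure D1:**
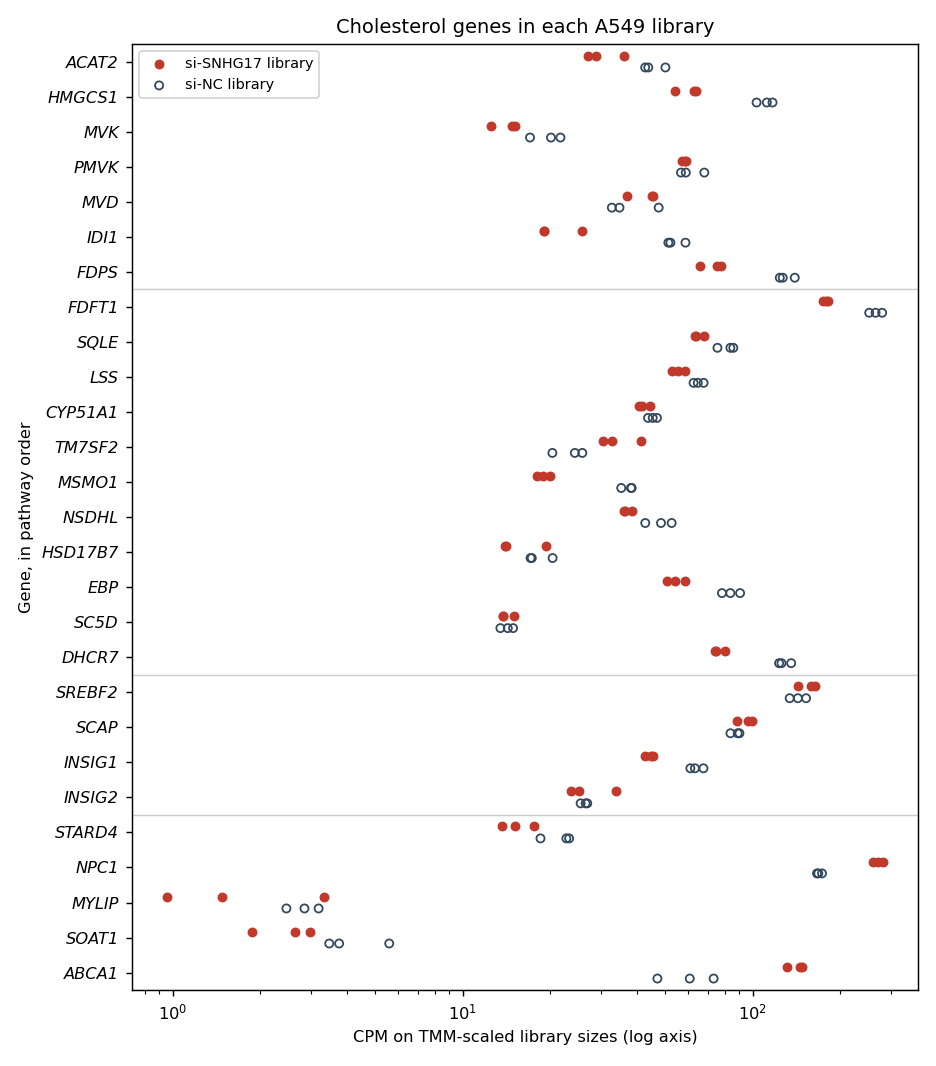
Level of each cholesterol gene tested, in CPM on a log axis, in the 3 si-SNHG17 libraries (filled points) and the 3 si-NC libraries (open points). Lines separate the early enzymes, the late enzymes, the regulators and the transport genes. IDI1, HMGCS1, FDPS, MSMO1 and DHCR7 lie lower in every si-SNHG17 library than in any si-NC library, while NPC1 and ABCA1 lie higher.

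The early enzymes carry acetyl-CoA to farnesyl diphosphate, the branch point for sterols, dolichol, ubiquinone and protein prenylation. Of these 7, 5 fell (71.4%) and none rose, beside 19.6% lower and 19.6% higher over all genes tested. The largest fall among the 27 members tested was that of IDI1, the isopentenyl diphosphate isomerase. It had 19.1, 19.1 and 25.8 CPM in si-SNHG17, against 52.0, 51.2 and 58.6 CPM in si-NC. Its highest knockdown library lay below its lowest control library by a wide gap, and the mean was 39.5% of the control level (log2 fold change -1.35, SE 0.127, adjusted p = 2.11e-06 by edgeR).

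HMGCS1, the synthase that makes HMG-CoA and a standard sterol-regulated gene, had 53.8, 62.6 and 63.8 CPM in si-SNHG17 and 117, 112 and 103 CPM in si-NC. All 3 knockdown libraries were low, and the fall was -0.88 on the log2 scale (SE 0.0936, adjusted p = 6.39e-06 by edgeR). FDPS, which condenses isoprene units into farnesyl diphosphate, had 65.7, 77.9 and 75.6 CPM in si-SNHG17 and 124, 127 and 139.6 CPM in si-NC. It fell to 56.1% of the control level (log2 fold change -0.83, adjusted p = 8.16e-06). Of its 8 named processed pseudogenes, 7 had counts, and the best counted, FDPSP1, had a sum of 40 reads under si-SNHG17 and 77 under si-NC. The antisense RUSC1-AS1 covers 28.9% of the FDPS exon bases but had only 17 summed reads under si-SNHG17 and 23 under si-NC. How shared reads were assigned is not stated.

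ACAT2, the cytosolic thiolase that opens the route, fell less. It had 27.0, 28.8 and 36.1 CPM in si-SNHG17 and 42.6, 50.002 and 43.6 CPM in si-NC (log2 fold change -0.57, adjusted p = 0.00207). In GENCODE release 29, 34.8% of its exon bases lie under exons of SOD2 on the opposite strand. Exons of SOD2-OT1 and of TCP1, also on that strand, cover 45.8% and 12.5%. TCP1 had 2002 summed counts under si-SNHG17 and 1922 under si-NC, and no counts were found for SOD2-OT1 by that name. SOD2 had 39962 summed counts among si-SNHG17 libraries and 9917 among si-NC libraries, so the ACAT2 value is uncertain if strand was not used in counting, and this was not tested. MVK, mevalonate kinase, had 14.8, 15.2 and 12.5 CPM in si-SNHG17 and 20.2, 17.1 and 21.7 CPM in si-NC (log2 fold change -0.47, adjusted p = 0.0168). The MVK call was lost without si-SNHG17 replicate 3 (adjusted p = 0.0730).

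The remaining pair of early enzymes act between MVK and IDI1 and did not pass. PMVK, phosphomevalonate kinase, averaged 58.2 ± 1.07 CPM in si-SNHG17 and 61.1 ± 6.11 CPM in si-NC (SD, n = 3 each), with a 95% confidence interval of -0.28 to 0.13 on the log2 scale. MVD, the mevalonate diphosphate decarboxylase, averaged 42.3 ± 4.69 CPM and 38.3 ± 7.97 CPM in si-SNHG17 and si-NC, with an interval of -0.15 to 0.44. These intervals do not reach the fold change of IDI1, HMGCS1 or FDPS. Without si-NC replicate 3, which had the highest MVD level of its group at 47.4 CPM, MVD was called higher (log2 fold change 0.33, adjusted p = 0.0261).

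The late enzymes turn farnesyl diphosphate into squalene and then close, demethylate and reduce the sterol rings. Of 11, 6 fell, 1 rose and 4 did not pass (54.5% lower and 9.09% higher, beside 19.6% each over all genes tested). FDFT1, squalene synthase and the step that commits isoprenoids to sterols, had 174, 178 and 182 CPM in si-SNHG17 and 252, 265 and 279 CPM in si-NC. Its libraries were tightly grouped and the fall was -0.58 (SE 0.0742, adjusted p = 3.52e-05). SQLE, the squalene epoxidase often described as a second control point of the route, had 63.1, 63.9 and 68.1 CPM in si-SNHG17 and 85.7, 83.7 and 75.6 CPM in si-NC. Its log2 fold change of -0.33 (adjusted p = 0.00904) was the smallest of the 14 falls.

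The ring-closing step and the demethylation that follows it did not pass. LSS, lanosterol synthase, had 55.2, 58.6 and 52.9 CPM in si-SNHG17 and 64.7, 62.5 and 67.7 CPM in si-NC. The groups did not overlap, yet LSS missed the threshold (log2 fold change -0.23, adjusted p = 0.0593 by edgeR). CYP51A1, the lanosterol demethylase, had 44.3, 40.4 and 41.4 CPM in si-SNHG17 and 45.2, 46.7 and 43.5 CPM in si-NC, with a 95% interval of -0.31 to 0.10. Its pseudogenes CYP51A1P1 and CYP51A1P2 held 171 and 175 summed reads under si-SNHG17 and 179 and 190 under si-NC, so the CYP51A1 value is uncertain where reads were split.

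MSMO1, the methylsterol oxidase, showed the largest fall of the late enzymes. It had 18.9, 18.1 and 20.1 CPM in si-SNHG17 and 38.3, 35.2 and 38.0 CPM in si-NC, or 51.1% of the control level (log2 fold change -0.97, SE 0.107, adjusted p = 8.88e-06). NSDHL, the sterol dehydrogenase acting with MSMO1 in removal of methyl groups, fell by less, with 36.4, 38.3 and 35.9 CPM in si-SNHG17 and 48.3, 42.6 and 52.5 CPM in si-NC (log2 fold change -0.37, adjusted p = 0.0114). HSD17B7, the ketoreductase of the same cycle, did not pass (15.8 ± 3.07 CPM in si-SNHG17 and 18.3 ± 1.85 CPM in si-NC, SD, n = 3 each). Its close copy HSD17B7P2 held 98 summed reads under si-SNHG17 and 65 under si-NC, and the assignment of shared reads is not given.

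Toward the end of the route, EBP, the sterol isomerase, had 50.5, 58.6 and 53.9 CPM in si-SNHG17 and 78.3, 83.7 and 90.5 CPM in si-NC (log2 fold change -0.63, adjusted p = 0.000129). DHCR7, the reductase that yields cholesterol itself, had 74.5, 80.1 and 74.0 CPM in si-SNHG17 and 123, 126 and 136 CPM in si-NC. It fell to 59.4% of the control level (log2 fold change -0.75, SE 0.0823, adjusted p = 8.41e-06). SC5D, the desaturase between them, averaged 14.2 ± 0.718 CPM in si-SNHG17 and 14.2 ± 0.717 CPM in si-NC (SD, n = 3 each), with a 95% interval of -0.28 to 0.28.

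TM7SF2, a sterol reductase, was the sole synthesis enzyme that rose. It had 32.7, 41.2 and 30.4 CPM in si-SNHG17 and 20.4, 24.4 and 25.8 CPM in si-NC. All knockdown libraries were above all control libraries, with si-SNHG17 replicate 2 the highest (log2 fold change 0.57, SE 0.135, adjusted p = 0.0044). Its exons overlap those of VPS51 by 7 bases on the same strand.

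Summed over the 7 early enzymes, the level was 299.7 ± 14.9 CPM in si-SNHG17 and 459 ± 20.1 CPM in si-NC, and over the 11 late enzymes 592 ± 14.8 CPM and 811 ± 26.1 CPM (SD, n = 3 each). The sums were thus 65.3% and 73.0% of the control level, a description that weights abundant genes most. Per kilobase of merged GENCODE exons, NPC1 was the highest of the 29 in si-SNHG17 at 52.5 CPM per kb, against 32.9 CPM per kb in si-NC. FDPS was the highest in si-NC, with 44.4 CPM per kb in si-SNHG17 and 79.0 CPM per kb in si-NC.

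**Figure D2:**
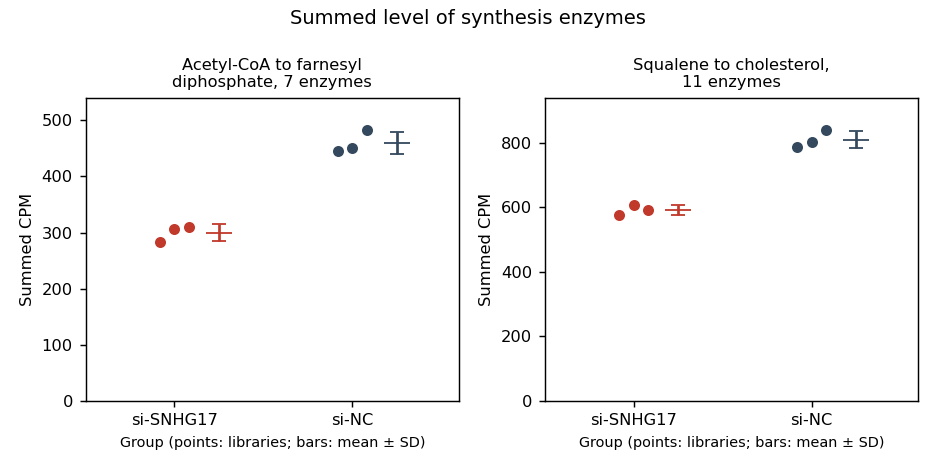
Summed CPM of the 7 early enzymes (left) and the 11 late enzymes (right) in each library, with points for libraries and bars for the mean and SD of 3 libraries. The si-SNHG17 sums lie below the si-NC sums in both panels, at 283 to 309.6 CPM against 445 to 482 CPM for the early enzymes and 577 to 607 CPM against 789 to 839 CPM for the late enzymes.

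Promoter windows of some members are given here for their sequence. Whether any motif in them had a part in the changes was not tested. Sterol regulatory element-binding proteins bind next to nuclear factor Y, whose site is the CCAAT box. RefSeq promoter windows on GRCh38.p14, 250 bases before to 50 after each annotated start, were matched for 25 of the 29 members, with 33 windows in all. ACAT2, FDFT1, SQLE and ABCG1 had none. The windows below belong to the 4 of these members with the largest falls, to SREBF2, and to TM7SF2 and ABCA1, which rose. For IDI1, with 3 annotated starts, and HMGCS1, with 2, the window with the most CCAAT boxes is printed. Capitals mark CCAAT or its reverse complement ATTGG and, in SREBF2, the sterol regulatory element.
IDI1 (chr10:1048837-1049136, minus strand): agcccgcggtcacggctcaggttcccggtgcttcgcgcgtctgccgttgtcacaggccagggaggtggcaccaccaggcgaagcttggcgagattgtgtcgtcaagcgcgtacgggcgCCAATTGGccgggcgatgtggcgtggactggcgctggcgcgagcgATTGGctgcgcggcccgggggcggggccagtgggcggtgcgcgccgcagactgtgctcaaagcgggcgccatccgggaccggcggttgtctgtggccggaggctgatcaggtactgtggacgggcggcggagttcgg
MSMO1 (chr4:165327419-165327718, plus strand): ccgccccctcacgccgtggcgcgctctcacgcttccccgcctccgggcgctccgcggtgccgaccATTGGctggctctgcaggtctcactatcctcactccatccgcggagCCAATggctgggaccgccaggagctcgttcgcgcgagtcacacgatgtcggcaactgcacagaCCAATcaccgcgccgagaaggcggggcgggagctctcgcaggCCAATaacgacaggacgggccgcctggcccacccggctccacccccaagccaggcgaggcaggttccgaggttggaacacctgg
HMGCS1 (chr5:43313363-43313662, minus strand): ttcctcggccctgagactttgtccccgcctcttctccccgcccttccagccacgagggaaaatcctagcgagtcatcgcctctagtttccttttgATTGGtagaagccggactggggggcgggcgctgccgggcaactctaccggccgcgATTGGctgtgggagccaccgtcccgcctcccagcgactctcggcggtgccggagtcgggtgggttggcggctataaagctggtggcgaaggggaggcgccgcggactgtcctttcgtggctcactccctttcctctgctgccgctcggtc
FDPS (chr1:155308616-155308915, plus strand): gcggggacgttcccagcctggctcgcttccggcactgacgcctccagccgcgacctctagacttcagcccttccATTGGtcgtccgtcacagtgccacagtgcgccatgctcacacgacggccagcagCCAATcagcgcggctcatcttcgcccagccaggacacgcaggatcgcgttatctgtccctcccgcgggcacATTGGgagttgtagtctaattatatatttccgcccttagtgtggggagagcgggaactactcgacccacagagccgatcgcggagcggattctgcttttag
SREBF2 (chr22:41832855-41833154, plus strand): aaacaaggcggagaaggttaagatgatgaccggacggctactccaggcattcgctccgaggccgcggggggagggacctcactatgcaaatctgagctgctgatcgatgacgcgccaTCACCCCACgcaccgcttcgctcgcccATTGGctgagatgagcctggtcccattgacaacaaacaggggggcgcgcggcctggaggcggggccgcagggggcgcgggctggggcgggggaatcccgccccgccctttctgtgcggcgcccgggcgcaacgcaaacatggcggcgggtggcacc
TM7SF2 (chr11:65111622-65111921, plus strand): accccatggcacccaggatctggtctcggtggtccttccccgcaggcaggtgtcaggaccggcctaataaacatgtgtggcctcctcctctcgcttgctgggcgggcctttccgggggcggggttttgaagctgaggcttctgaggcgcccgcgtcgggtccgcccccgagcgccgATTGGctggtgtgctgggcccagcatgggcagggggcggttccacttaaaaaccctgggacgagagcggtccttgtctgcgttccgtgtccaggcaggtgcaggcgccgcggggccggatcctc
ABCA1 (chr9:104928106-104928405, minus strand): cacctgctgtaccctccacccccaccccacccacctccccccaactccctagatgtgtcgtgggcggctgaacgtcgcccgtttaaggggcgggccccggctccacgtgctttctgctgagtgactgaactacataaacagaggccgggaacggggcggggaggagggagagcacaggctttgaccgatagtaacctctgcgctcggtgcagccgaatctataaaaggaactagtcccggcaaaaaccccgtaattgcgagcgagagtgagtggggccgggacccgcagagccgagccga

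The printed windows held 3 CCAAT boxes for IDI1, of which a pair overlap on opposite strands, 4 for MSMO1, 2 for HMGCS1 and 3 for FDPS. SREBF2 and TM7SF2 held 1 each and ABCA1 held 0. On either strand, the letters CCAAT occurred in 12 of 15 windows of members that fell, and in 10 of 15 at least 2 times. They occurred in 1 of 3 windows of members that rose, in 7 of 12 windows of members that did not pass, and in 34.6% of all 35116 windows in the table (34.3% for genes tested here). At least 2 boxes were found in 0 of 3 windows of members that rose and in 3 of 12 of members that did not pass. The share was 10.8% of all windows and 11.9% of windows of genes tested. Windows of LPIN1, which was not tested, held 0 CCAAT boxes and are in none of these groups of members. The GC box GGGCGG was found in 13 of 15 windows of members that fell, in 3 of 3 of members that rose, in 12 of 12 of members that did not pass and in 66.5% of windows of genes tested. Exact letters of the sterol regulatory element, TCACNCCAC, were found in the SREBF2 window alone among the members, and in 1.13% of all windows. An exact match to the liver X receptor consensus (AGGTCA, any 4 bases, then AGGTCA again) was in none of the 33 windows and in 0.0199% of all windows. Elements with other letters were not searched for, so a window without a match may still hold an element. In the printed ABCA1 window, the stretch tgaccgatagtaacct, read on the other strand, is close to this consensus but not an exact match. These are matches of letters in a short window, in which motifs may overlap and 1 gene may have several windows, and no binding was measured.

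**Figure D3:**
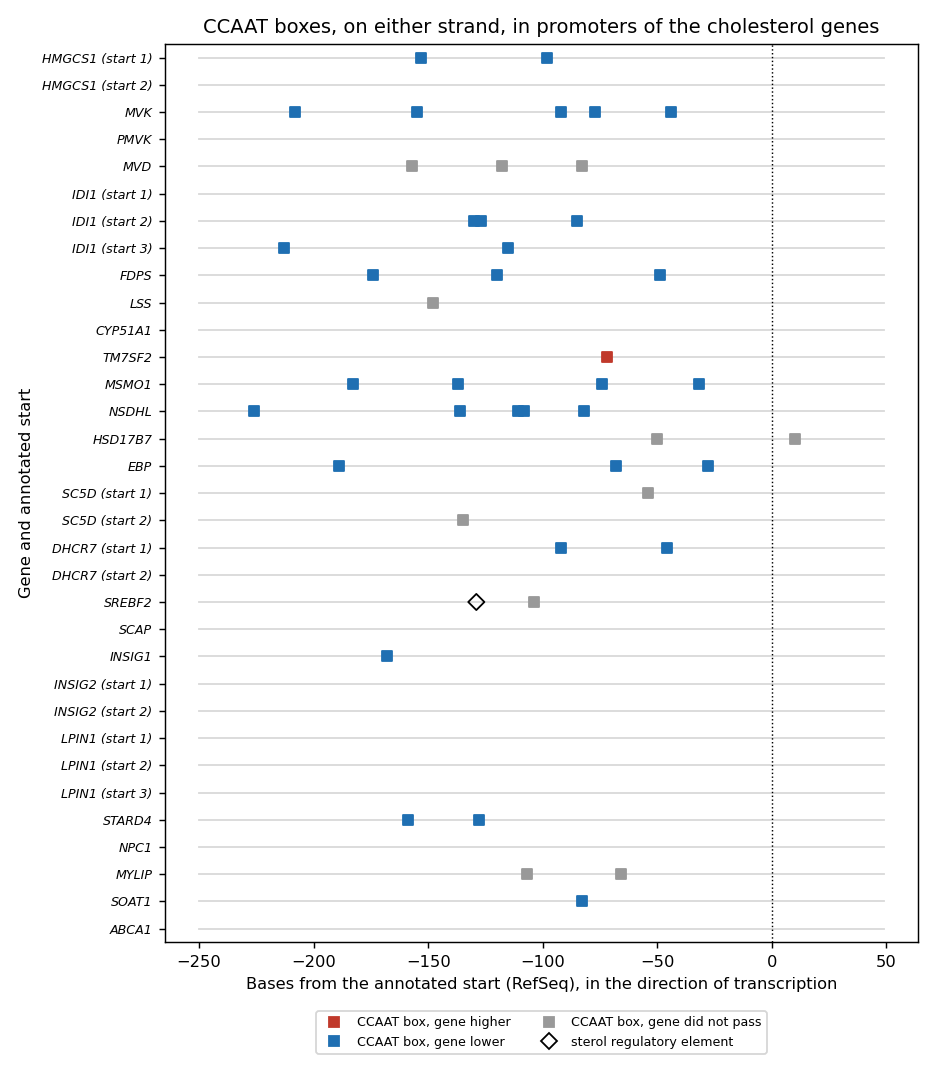
Position of CCAAT boxes on either strand (squares) and of the sterol regulatory element (diamond) in each promoter window, in bases from the annotated start. Squares are coloured by the gene's direction after SNHG17 knockdown. MVK and NSDHL hold 5 boxes each, MSMO1 4, and NPC1 and ABCA1 hold 0. MVD, which did not pass, holds 3, and TM7SF2, which rose, holds 1. Start 1 of IDI1 and start 2 of HMGCS1 and of DHCR7, all genes that fell, hold 0.

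Of the 4 regulators tested, INSIG1 fell and 3 did not pass. That is 25% lower, near the 19.6% of all genes tested, so the count says little about the regulators as a group. SREBF2, which encodes the sterol regulatory element-binding protein most tied to cholesterol genes, had 164, 143 and 158 CPM in si-SNHG17 and 143, 153 and 134 CPM in si-NC. The groups overlapped, and the 95% interval of its log2 fold change was -0.07 to 0.30 (adjusted p = 0.303). SCAP, the escort protein, had 96.5, 99.8 and 88.3 CPM in si-SNHG17 and 83.8, 88.8 and 90.0 CPM in si-NC, with an interval of -0.06 to 0.30. A fall of either transcript as large as that of SQLE lies outside these intervals.

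INSIG1, which holds SCAP back and is itself a target of the pathway, had 44.7, 45.1 and 42.4 CPM in si-SNHG17 and 63.2, 60.9 and 67.6 CPM in si-NC. No library of one group reached the other, and INSIG1 fell to 69.0% of the control level (log2 fold change -0.54, SE 0.0912, adjusted p = 0.000387). INSIG2, its paralogue with weaker sterol control, averaged 27.5 ± 5.47 CPM in si-SNHG17 and 26.3 ± 0.715 CPM in si-NC (SD, n = 3 each). Its spread in si-SNHG17 came from replicate 3 at 33.7 CPM, and the interval was -0.23 to 0.34. LPIN1, a phosphatidate phosphatase that restrains these factors in mouse cells, had a count of 0 in all 6 libraries. A count of 0 allows up to 3 counts, or 0.240 to 0.342 CPM per library, for counting error alone. The annotation used for counting is not stated, so whether reads could be assigned to the LPIN1 row is not known and the limit may not hold for the gene.

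The transport genes moved in both directions, with 2 risen and 2 fallen of 5 tested (40% each, beside 19.6% each over all genes tested). ABCA1, the pump that loads cholesterol onto apolipoproteins, had 147, 131 and 146 CPM in si-SNHG17 and 73.3, 60.7 and 46.9 CPM in si-NC. The lowest knockdown library was above the highest control library, although the control libraries themselves were spread. Its mean was 234% of the control level (log2 fold change 1.23, SE 0.128, adjusted p = 5.11e-06), the largest rise among the members.

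NPC1, which exports cholesterol from lysosomes, had 270.4, 281 and 261 CPM in si-SNHG17 and 173, 167 and 168 CPM in si-NC. Both groups were tight and far apart (log2 fold change 0.68, SE 0.0725, adjusted p = 6.96e-06). ABCG1, the companion efflux pump, had 2, 1 and 1 counts under si-SNHG17 and 2, 1 and 0 under si-NC. At that depth no difference could be detected.

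STARD4, a cytosolic sterol carrier and a sterol-regulated gene, had 13.7, 15.2 and 17.5 CPM in si-SNHG17 and 22.8, 23.3 and 18.5 CPM in si-NC (log2 fold change -0.48, adjusted p = 0.0151). The groups were close at their edges, and the call was lost without si-SNHG17 replicate 1 (adjusted p = 0.0720) or si-NC replicate 2 (0.0680). SOAT1, which esterifies cholesterol for storage, had 18, 33 and 26 counts under si-SNHG17 and 49, 38 and 37 under si-NC (log2 fold change -0.76, adjusted p = 0.0429). The SOAT1 call was lost in 9 of 14 alternatives, with adjusted p up to 0.208. MYLIP, the ubiquitin ligase that degrades lipoprotein receptors, had 32, 12 and 13 counts under si-SNHG17 and 25, 25 and 34 under si-NC and did not pass, with an interval of -1.42 to 0.24. Without si-SNHG17 replicate 1, which held the most, MYLIP was called lower (log2 fold change -1.24, adjusted p = 0.0216).

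**Figure D4:**
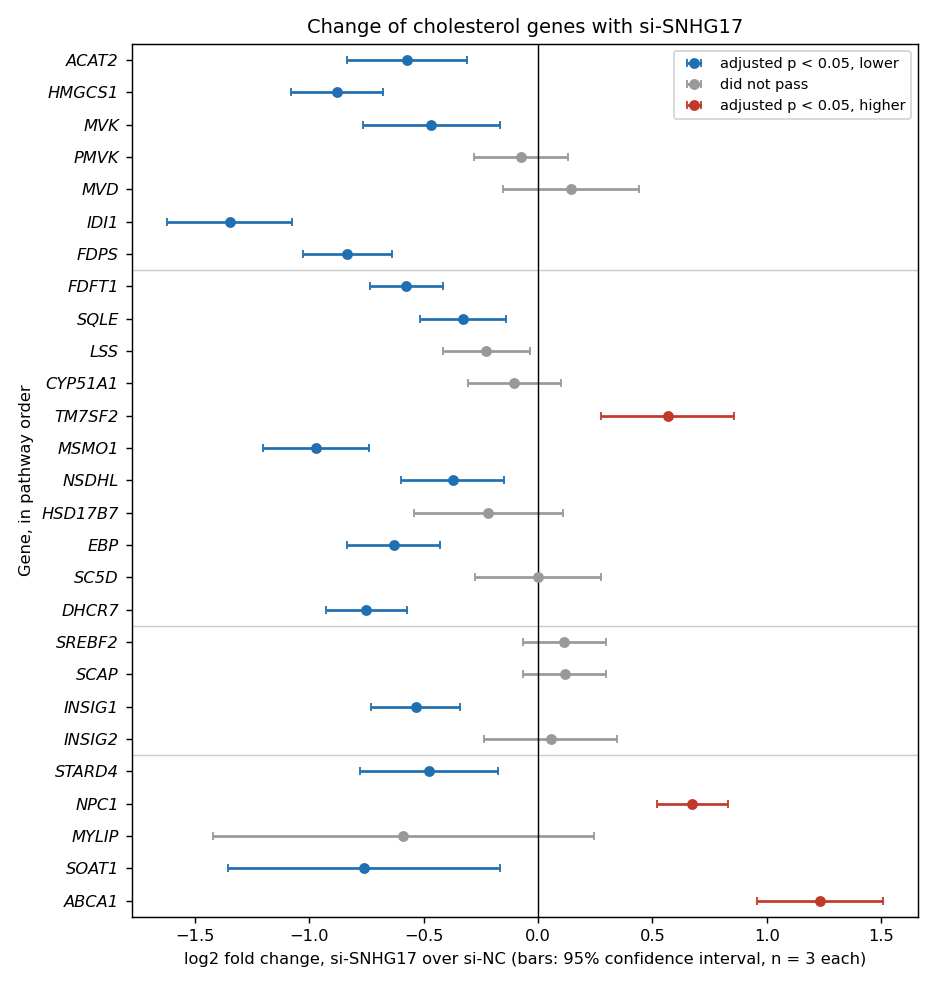
Log2 fold change of si-SNHG17 over si-NC for the 27 genes tested, in pathway order, with 95% confidence intervals from edgeR (n = 3 each). Points left of 0 are lower in si-SNHG17. IDI1 is farthest left at -1.35 and ABCA1 farthest right at 1.23, and SREBF2 and SCAP lie near 0.

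Other genes of sterol handling, a list of 34 of which 29 were tested, included 9 that fell and 5 that rose (31% and 17.2%, beside 19.6% lower and 19.6% higher over all genes tested). Their median log2 fold change was -0.09. ERLIN1, an endoplasmic reticulum protein that restrains sterol factor activation, had 37.7, 33.9 and 38.1 CPM in si-SNHG17 and 141, 133 and 141 CPM in si-NC, a larger fall than any member's (log2 fold change -1.92, adjusted p = 3.53e-09). TMEM97, which binds NPC1, fell by 1.15 on the log2 scale (31.2 ± 2.97 CPM in si-SNHG17 and 69.3 ± 8.69 CPM in si-NC), and ACSS2, which makes acetyl-CoA from acetate, fell by 0.88 (30.7 ± 1.63 CPM and 56.6 ± 2.79 CPM, SD, n = 3 each). ACLY, the main source of cytosolic acetyl-CoA upstream of ACAT2, had 151, 137 and 141 CPM in si-SNHG17 and 1032, 1089 and 951 CPM in si-NC (log2 fold change -2.84, SE 0.083, adjusted p = 1.34e-10).

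The 5 that rose, 4 of them named after their values were seen, act in uptake, lysosomal hydrolysis and transport. GRAMD1A, an endoplasmic reticulum sterol carrier, averaged 511 ± 25.0 CPM in si-SNHG17 and 304 ± 18.5 CPM in si-NC (SD, n = 3 each), a log2 fold change of 0.75 (adjusted p = 4.4e-06). The late endosomal sterol carrier STARD3 rose by 0.54, the NPC1 partner NPC2 by 0.46 and the lysosomal acid lipase LIPA by 0.37 on the same scale. The endocytic receptor LRP1 had 45.3, 26.9 and 35.2 CPM in si-SNHG17 and 18.9, 14.005 and 7.30 CPM in si-NC, so its groups were apart but widely spread (log2 fold change 1.43, SE 0.255, adjusted p = 0.000548).

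Of 10 liver X receptor genes and targets outside the members, 4 fell (40%) and none rose, beside 19.6% lower and 19.6% higher over all genes tested. Of the receptor's targets counted with the members, ABCA1 rose, MYLIP did not pass (log2 fold change -0.59) and ABCG1 had too few reads to be tested. SCD, the stearoyl-CoA desaturase, which sterol factors also induce, had 370.1, 311 and 345 CPM in si-SNHG17 and 1158, 1112 and 913 CPM in si-NC (log2 fold change -1.63, adjusted p = 3.34e-08). NR1H3, one of the receptors, fell to 10.1 ± 2.20 CPM in si-SNHG17, against 20.8 ± 5.03 CPM in si-NC (SD, n = 3 each, log2 fold change -1.03). The phospholipid remodelling enzyme LPCAT3 fell by 0.27 on the log2 scale (adjusted p = 0.0234). NR1H2, the other receptor, was at 106 ± 3.32 CPM and 90.3 ± 11.9 CPM in si-SNHG17 and si-NC and did not pass (adjusted p = 0.070), nor did the pump gene ABCG4 (adjusted p = 0.0684).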

How the data were processed

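Per the labels' protocols, Trizol RNA of the 6 A549 samples was sequenced single-end on an Ion Proton after Ion Total RNA-Seq library preparation. The labels number the samples but do not say that they were separate cultures. The spread behind the p-values may thus be technical. The values deposited by the authors are raw counts of reads, whole numbers with no normalization. GRCh38 is named in the submitters' processing notes. Aligner, counter, annotation and strand use, not given in the sources used here, matter for genes with overlapping partners or pseudogenes.

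Library totals were 8643076 to 12477214 counts. No 2 libraries were identical, and all 6 were counted as separate. In R 4.3.3 with edgeR 4.0.16, genes passing filterByExpr were scaled by TMM and tested with glmQLFit and glmQLFTest on group alone. Adjustment was by Benjamini-Hochberg over 15614 genes, with a threshold of 0.05. Intervals are 95% confidence intervals of the fit, SE is its standard error, and CPM is per 1000000 scaled counts. The procedure was checked on simulated data in which only a small share of genes changed. It was not checked under a shift as broad as the 39.1% of genes called here. The libraries' replicate numbers were not taken as pairs. Exon lengths and overlaps came from the GENCODE release 29 basic set, and promoter sequences from RefSeq (GRCh38.p14), searched in Python 3.11.15.

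The values of the members and of SNHG17, and the counts of members and of all genes called, were recomputed in 14 alternatives. These were limma-voom (limma 3.58.1), DESeq2 1.42.0, a replicate block, and fits without each library in turn or without the filter. The others were a minimum mean CPM of 1 and edgeR scaled by upper quartile, by DESeq2 size factors or by totals. Values of the other named genes and lists, the summed levels and the promoter matches were not recomputed. Floors and intervals cover counting or fitting error only. All members were named whatever their values. From each further list, up to 6 genes with the smallest p were named; some genes this names are not reported here. The members and lists were chosen with earlier results of these data known.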

Additional observations from a re-analysis of the deposited data

How the results depend on the processing

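The 14 alternatives gave 15 to 18 members past the threshold, against 17 in the fit reported. SNHG17 was lower in each, from -2.37 to -2.04 on the log2 scale. Over 378 values of the 27 members tested, 356 kept their direction and side of the threshold, 12 lost it, 2 gained it and 8 changed sign. Leaving out each library gave 12 to 14 members lower and 3 to 4 higher; 1 to 2 synthesis enzymes higher, the most without si-NC replicate 3, which added MVD; and 2 to 4 transport genes called, 0 to 2 of them lower, the fewest without si-NC replicate 2. Transport genes lower numbered 1, not 2, with library totals only, DESeq2, limma-voom and the replicate block, each through SOAT1, whose adjusted p was 0.0540, 0.113, 0.0505 and 0.0684; it had 18 to 49 counts per library. No other member changed its call with the block, which left 5579 of all genes called, against 6112. Libraries of like number had correlations of deviations of 0.0605, -0.114 and -0.0910, and none correlated best with its own number. The members that changed sign were near 0: SC5D (0.00 as reported) with DESeq2 size factors (-0.0017), upper quartile scaling (-0.0020), a mean CPM of at least 1 (-0.00087), the block (-0.0026), without si-SNHG17 replicate 2 (-0.043, against up to 0.032 without another library) and without si-NC replicate 3 (-0.039); PMVK without si-NC replicate 3 (0.010, against as low as -0.13); and INSIG2 without si-SNHG17 replicate 3 (-0.11, against up to 0.16). The causes were not tested.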

Other observations

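The isoprenoid branches that leave the route at farnesyl diphosphate showed no common direction. Of 15 genes for ubiquinone and dolichol synthesis and for protein prenylation, 14 were tested, 3 fell and 2 rose (21.4% and 14.3%, beside 19.6% lower and 19.6% higher over all genes tested). The farnesyltransferase subunits went opposite ways. FNTA, the shared alpha subunit, had 38.1, 37.9 and 35.3 CPM in si-SNHG17 and 19.1, 21.4 and 17.9 CPM in si-NC (log2 fold change 0.93, adjusted p = 1.76e-05 by edgeR), while FNTB, the beta subunit, had 12.5, 11.98 and 9.46 CPM in si-SNHG17 and 18.7, 16.2 and 15.7 CPM in si-NC (log2 fold change -0.57, adjusted p = 0.00834). ICMT, the methyltransferase of prenylated proteins, had 89.2, 77.6 and 80.5 CPM in si-SNHG17 and 137, 140.3 and 131 CPM in si-NC (log2 fold change -0.73), and ZMPSTE24, a protease of prenylated proteins, averaged 21.0 ± 1.70 CPM in si-SNHG17 and 29.1 ± 4.15 CPM in si-NC (SD, n = 3 each, log2 fold change -0.46). RABGGTB, the beta subunit of the prenyltransferase acting on Rab proteins, rose to 1.98 ± 0.515 CPM in si-SNHG17, against 0.770 ± 0.144 CPM in si-NC, on few reads. NUS1, of dolichol synthesis, averaged 12.8 ± 2.15 CPM in si-SNHG17 and 16.4 ± 1.87 CPM in si-NC and did not pass (adjusted p = 0.0960).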
